A study of Mus musculus with 4 samples.

Results

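Colonic epithelial cells (CECs) of mice that had colitis and received indole-3-carbinol (I3C) were compared with those of mice that received vehicles only. The question was which genes differed between treated colitis and the vehicle control. The comparison takes 2 of the 4 arrays of the study, TNBS+I3C and Vehicle, and covers every gene with a probe set that pairs with 1 gene symbol. Where a gene has several, the probe set with the largest average signal was taken. This gave 30187 genes, of which 19058 are protein-coding. A gene counted as measured where it read above 5.43 in at least 1 of the 2 arrays, a level taken from olfactory and vomeronasal receptors, which belong to sensory neurons. By that criterion 15113 genes of any class and 10019 coding genes were measured. Values are log2 signals, so a difference of 1 is 2-fold, and values at or below 5.43 were raised to it before a difference was taken.

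All 4 groups were female BALB/cJ mice, 8 to 10 weeks old, and cells were taken on day 5. The TNBS+I3C group received 1 mg of TNBS (2,4,6-trinitrobenzenesulfonic acid, a hapten that provokes colitis) in ethanol by the intrarectal route, together with 40 mg/kg of I3C in DMSO and corn oil by daily intraperitoneal injection. Vehicle mice received both carriers without TNBS or I3C, the I3C group received I3C without TNBS, and TNBS+Vehicle mice received TNBS with the carrier of I3C. Cells bearing EPCAM, a surface protein of epithelium, were enriched from colon and pooled by group before hybridisation to a Clariom D array, although a note on RNA extraction in the labels names whole colon tissue. Each group is thus 1 pooled array. No difference has a replicate check, and no test was made. TNBS+I3C and Vehicle differ in both TNBS and I3C, and the contributions of these within the pair cannot be told apart. The I3C and TNBS+Vehicle arrays are given beside them gene by gene, and every difference from Vehicle rests on the same Vehicle array.

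The colonic epithelium is a layer of absorptive cells and mucus-secreting goblet cells, with rarer endocrine and tuft cells, renewed from stem cells at the base of the crypts. Under injury it secretes antimicrobial lectins, tightens or remodels its junctions and releases growth factors and chemokines, while neutrophils and monocytes enter the layer. I3C, found in cruciferous vegetables, gives rise to ligands of the aryl hydrocarbon receptor (AhR), a transcription factor that pairs with ARNT at DNA sites with the core GCGTG.

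Epithelial markers were strong in both arrays. They do not by themselves tell enriched cells from whole colon. By the paper's flow cytometry the enriched cells were mostly, not wholly, EPCAM-positive. Epcam read 17.06 in Vehicle and 17.13 in TNBS+I3C, Krt8, a keratin of simple epithelia, was at the 19.93 ceiling of the table in all 4 arrays, and Vil1, the microvillus protein villin, read 14.27 in Vehicle and 14.81 in TNBS+I3C. All 13 pan-epithelial genes were measured, with a median difference of 0.33 (0.22 after quantile normalization). Over all probe sets the array medians were 4.99 in Vehicle, 5.00 in I3C, 4.87 in TNBS+Vehicle and 4.88 in TNBS+I3C. The median of TNBS+I3C thus lay -0.11 from that of Vehicle, while the median difference over measured coding genes was 0.08. Ceiling values occurred in 14 coding genes, whose differences may be understated.

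At the 2-fold threshold, 108 coding genes were higher in TNBS+I3C than in Vehicle, 1.08% of the 10019 measured, and 7 were lower, which is 0.0699%. With the same rules and the same Vehicle array, 310 coding genes were higher and 61 lower in TNBS+Vehicle, and 22 higher and 9 lower in I3C. The central spread was narrow, with an SD of 0.293 over coding genes, a 1st percentile of -0.46 and a 99th percentile of 1.02. Differences above 0 made up 64.0% of coding genes. The spread depended on signal. Its SD was 0.194 for genes with a mean up to 6 and 0.476 for genes with a mean between 14 and 16. The median difference also depended on it, at -0.03 for means up to 6, 0.07 from 6 to 8, 0.16 from 8 to 10, 0.19 from 10 to 12, 0.32 from 12 to 14, 0.36 from 14 to 16 and 0.07 above 16. Calls of higher genes were also more frequent at bright signal. They numbered 0 of 1836 genes for means up to 6, 20 of 4285 from 6 to 8 and 28 of 2412 from 8 to 10. For means of 10 to 12 they were 27 of 943, and from 12 to 14 they were 19 of 347. From 14 to 16 they were 9 of 120, and above 16 they were 5 of 76. The list medians given with the gene groups are to be read beside the medians by signal. Their counts are to be read beside the counts by signal, the 64.0% above 0, the 1.08% higher and the 0.0699% lower. For lists of bright genes 1.08% is a low comparator. No list median or count is called particular to its list, and the lists were chosen with earlier results of these data known. At the threshold itself lay Gstk1, a glutathione transferase, at 1.00 and Akr1c19 just outside at 0.99, and on the lower side Mptx2 at -1 and Cyp3a13 outside at -0.97.

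**Figure D1:**
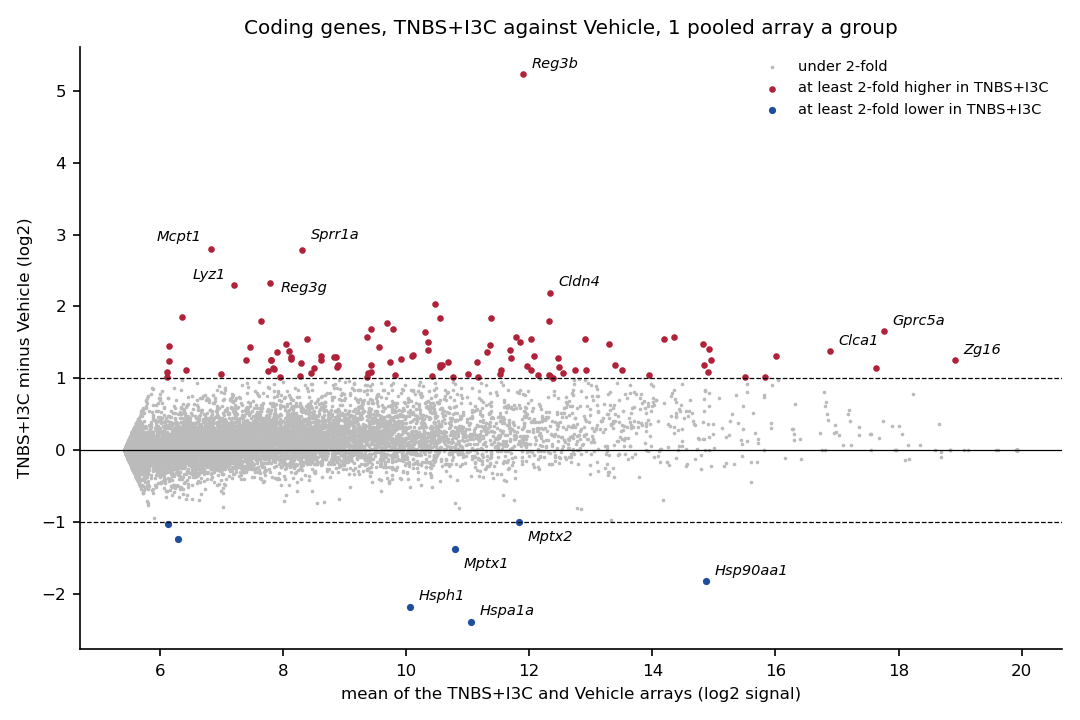
Each point is a measured coding gene, with the mean of the TNBS+I3C and Vehicle arrays on the x axis and the difference TNBS+I3C minus Vehicle on the y axis, both in log2 units; dashed lines mark 2-fold. Red points are the 108 higher genes and blue points the 7 lower genes, with Reg3b alone above 5 and the heat shock genes Hspa1a, Hsph1 and Hsp90aa1 lowest among named genes.

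The 25 highest coding genes ranged from 1.5 to 5.23. In 19 of them TNBS+I3C held the highest value of the 4 arrays, and in the other 6 TNBS+Vehicle did. The 25 lowest ranged from -2.39 to -0.65, and TNBS+I3C held the lowest of the 4 values in 19 of those. The lectin gene Reg3b led the upper end and heat shock genes led the lower end.

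**Figure D2:**
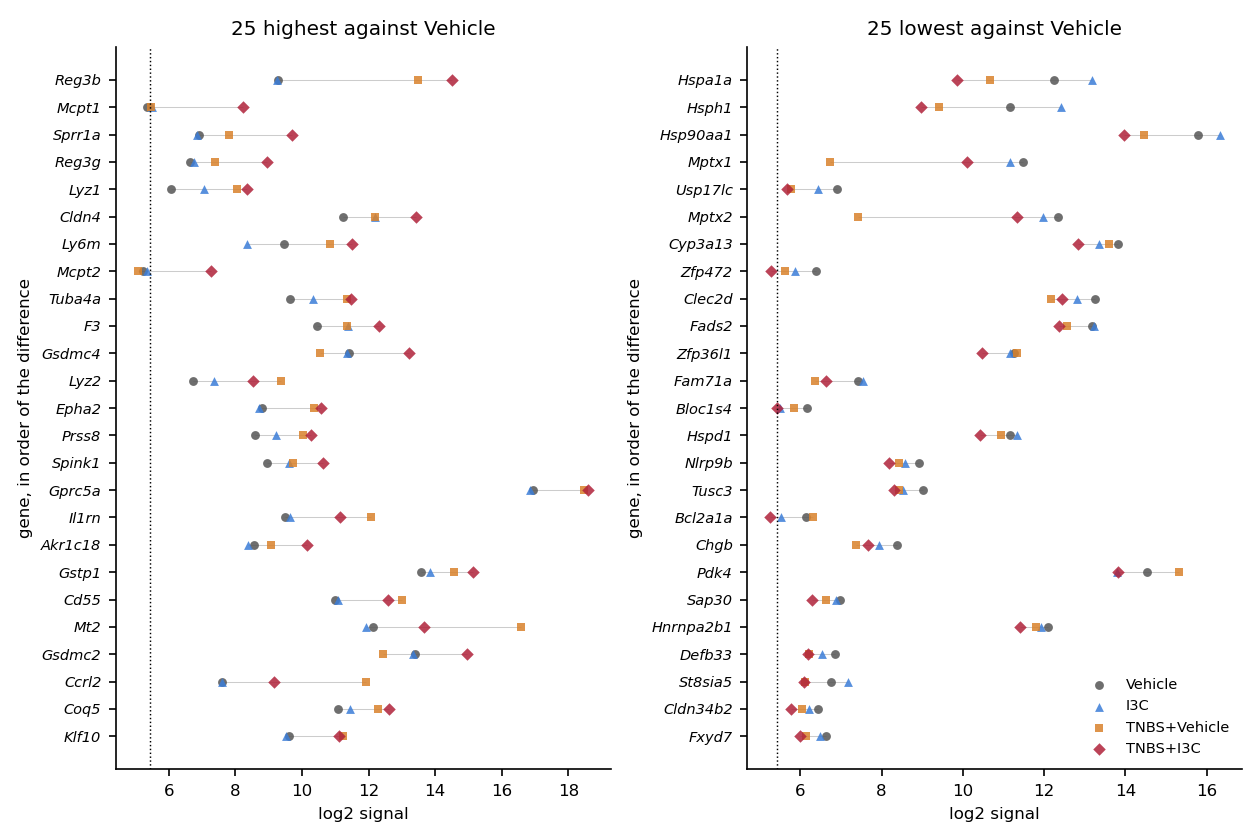
Log2 signal (x axis) in the 4 arrays, 1 pooled array a group, for the 25 coding genes with the highest and the 25 with the lowest difference of TNBS+I3C from Vehicle, in that order. The dotted line is the background level of 5.43. Red diamonds (TNBS+I3C) lie furthest right in 19 of the genes on the left panel and furthest left in 19 on the right panel.

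The largest difference was that of Reg3b, which encodes a secreted C-type lectin that acts on gut bacteria. Reg3b read 9.29 in Vehicle, 9.25 in I3C, 13.50 in TNBS+Vehicle and 14.52 in TNBS+I3C. Both arrays with TNBS were high and both without it were low, and the difference from Vehicle was 5.23, or 37.5-fold. Its relative Reg3g, also on chromosome 6, encodes a lectin that binds peptidoglycan of Gram-positive bacteria. Reg3g read 6.63 in Vehicle, 6.75 in I3C, 7.38 in TNBS+Vehicle and 8.95 in TNBS+I3C. The treated colitis array was the high one, 2.32 above Vehicle, with TNBS+Vehicle between. Reg3a was at background in all arrays, and Reg4, a goblet and endocrine cell lectin, differed by -0.11.

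The promoters of the pair are shown because both genes stood among the 4 highest while TNBS+Vehicle differed from Vehicle by 4.21 for Reg3b and 0.75 for Reg3g. The sequences are RefSeq's for GRCm38.p6, the 250 bases before the start site read on the strand of the gene, with capitals for TTCNNNGAA, the form of site bound by STAT transcription factors. Reg3b lies at chr6:78370635-78370884 on the plus strand and Reg3g at chr6:78468875-78469124 on the minus strand.
Reg3b: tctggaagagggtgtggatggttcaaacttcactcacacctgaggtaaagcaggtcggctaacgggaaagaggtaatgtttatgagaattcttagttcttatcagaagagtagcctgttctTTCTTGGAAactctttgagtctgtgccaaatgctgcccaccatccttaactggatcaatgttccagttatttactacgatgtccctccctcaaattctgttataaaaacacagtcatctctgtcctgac
Reg3g: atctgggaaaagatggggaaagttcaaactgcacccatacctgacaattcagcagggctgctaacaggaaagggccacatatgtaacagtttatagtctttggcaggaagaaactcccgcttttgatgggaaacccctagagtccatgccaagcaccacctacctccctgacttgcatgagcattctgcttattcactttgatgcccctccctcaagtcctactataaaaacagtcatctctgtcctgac
Reg3b has 1 match, which begins at position -129, and Reg3g has none in these bases. Whether the site bears on the values of either gene was not tested. The motif, which reads the same on both strands, occurs in 8.30% of 32851 promoters of 300 bases (250 before to 50 after the start). It occurs in 4 of the 81 higher coding genes that have a promoter in the table, Alas1, Reg3b, Steap4 and Zfp953, or 4.94%, against 8.36% of the 8234 measured coding genes with a promoter there.

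Both lysozymes were also high. Lyz1, the lysozyme of Paneth cells, read 6.06 in Vehicle, 7.06 in I3C, 8.04 in TNBS+Vehicle and 8.36 in TNBS+I3C. Vehicle was the low array and the colitis arrays the high ones, and the difference was 2.30. Lyz2, the lysozyme of macrophages and neutrophils, read 6.74 in Vehicle, 7.36 in I3C, 9.36 in TNBS+Vehicle and 8.53 in TNBS+I3C, so that TNBS+Vehicle was the highest and the difference for TNBS+I3C was 1.79. The genes are similar in sequence, and the split of signal between them is uncertain. In bulk RNA, more cells of a type and more RNA per cell cannot be told apart.

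Chymases of mucosal mast cells were high in the treated colitis array alone. Mcpt1 read 5.36 in Vehicle, 5.49 in I3C, 5.46 in TNBS+Vehicle and 8.23 in TNBS+I3C. Mcpt2 read 5.24, 5.36, 5.09 and 7.28 in the same order. For both, TNBS+I3C stood alone while the other 3 arrays were at or near background. Against Vehicle, TNBS+I3C was at least 2.80 higher for Mcpt1 and at least 1.85 higher for Mcpt2. The other mast cell genes did not share that pattern. Of 12 listed, 5 were measured. Cpa3, Cma1, Tpsab1, Tpsb2, Fcer1a and Ms4a2, which encode the carboxypeptidase, other proteases and the IgE receptor of mast cells, were at or below 5.43 in both arrays, and Kit, the stem cell factor receptor, differed by -0.05. Mcpt4, the chymase of connective tissue mast cells, read 5.13 in Vehicle and 5.65 in TNBS+I3C. As log2 of the sum, the signal of the list was 9.26 in Vehicle, 9.51 in I3C, 9.94 in TNBS+Vehicle and 9.99 in TNBS+I3C. The sums of the colitis arrays were level but came from different genes. Hdc, which makes histamine, read 5.08, 4.95, 9.12 and 5.48 and was high in TNBS+Vehicle only, where it gave most of the sum. In TNBS+I3C the largest parts were those of Mcpt1 (8.23) and Kit (8.17). Whether mast cells took part in the Mcpt1 and Mcpt2 values was not tested. The genes are related in sequence, and whether their probe sets read each other's transcripts was not tested.

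Gasdermin C genes, whose products form membrane pores when cleaved, were likewise highest in TNBS+I3C. Gsdmc4 read 11.42 in Vehicle, 11.36 in I3C, 10.55 in TNBS+Vehicle and 13.22 in TNBS+I3C. Gsdmc2 read 13.41, 13.34, 12.43 and 14.96, and Gsdmc3 12.55, 12.62, 11.50 and 14.03. In all 3 genes TNBS+Vehicle was the lowest array and TNBS+I3C the highest, with differences from Vehicle of 1.80, 1.55 and 1.48. These copies are similar in sequence and cannot be counted as separate observations. Gsdmc itself differed by 0.73, Gsdmd, the gasdermin cleaved by inflammatory caspases, by 0.62 and Casp8 by 0.76, and Casp1 by -0.22. Of the 8 measured gasdermins and caspases 3 were at least 2-fold higher (37.5%, against 1.08% of measured coding genes) and none lower. Those 3 are the similar copies Gsdmc2, Gsdmc3 and Gsdmc4. The list median was 0.74 (0.55 after quantile normalization).

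**Figure D3:**
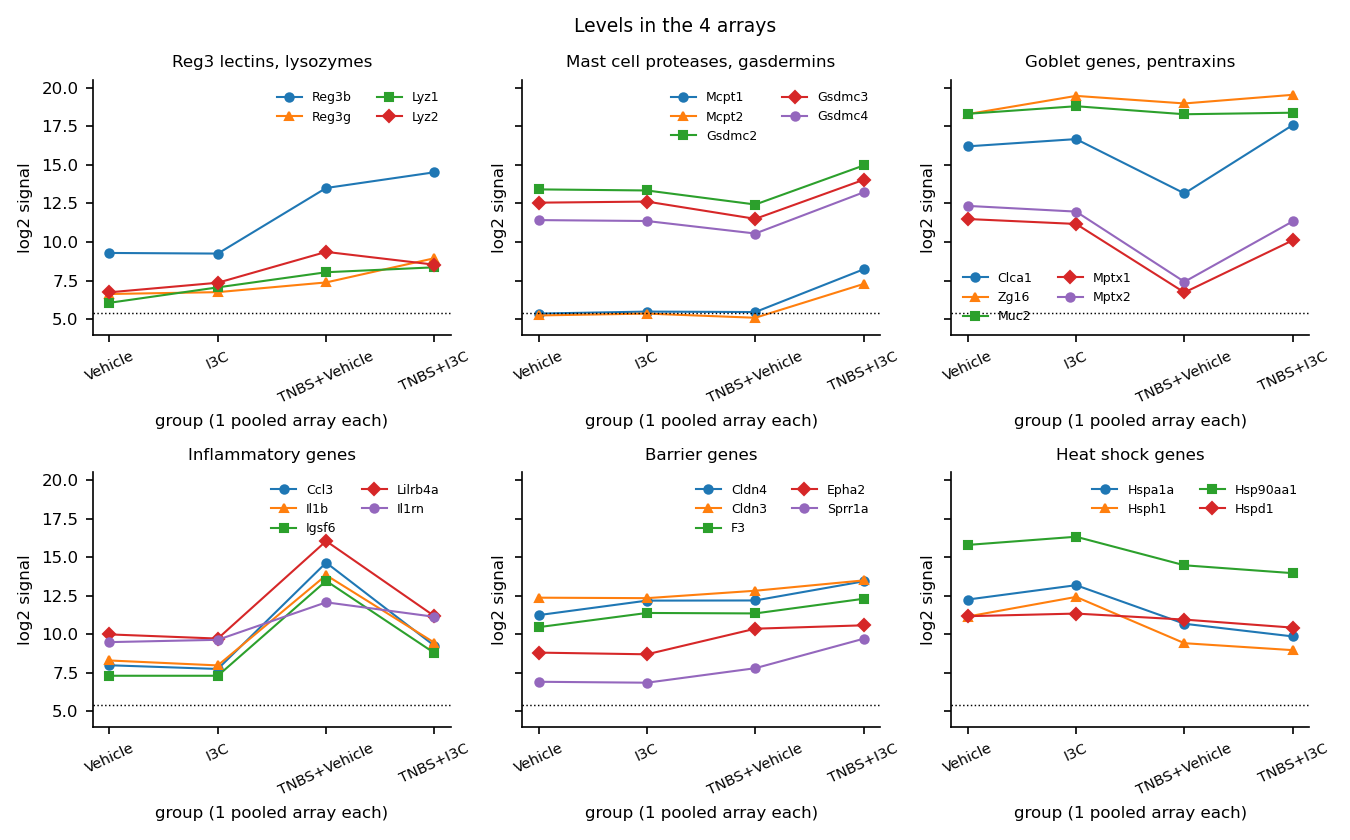
Log2 signal (y axis) in the 4 pooled arrays (x axis) for genes of 6 groups; a line joins the values of 1 gene and the dotted line is the background level of 5.43. Reg3b is high in both colitis arrays, Mcpt1, Mcpt2 and the gasdermin C genes are highest in TNBS+I3C, the inflammatory genes peak in TNBS+Vehicle, and the heat shock genes are lowest in TNBS+I3C.

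Cldn4, a claudin of tight junctions, read 11.24 in Vehicle, 12.18 in I3C, 12.19 in TNBS+Vehicle and 13.43 in TNBS+I3C. The treated colitis array was highest, I3C and TNBS+Vehicle were level with each other, and the difference from Vehicle was 2.19. Cldn3 read 12.37, 12.34, 12.82 and 13.49, a difference of 1.12 that became 0.91 after quantile normalization. Cldn23 differed by 0.78, Cldn15 by 0.67 and F11r, the junctional adhesion molecule A, by 0.43. The 11 measured claudin and junction genes all lay above 0, as did 64.0% of measured coding genes. Of the 11, 2 were past 2-fold (18.2%, against 1.08% of coding genes higher). Their median was 0.43 (0.29 after quantile normalization).

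Further genes among the 25 highest follow with their roles. Sprr1a, a precursor of the cornified envelope of squamous epithelium, read 6.92 in Vehicle, 6.86 in I3C, 7.80 in TNBS+Vehicle and 9.71 in TNBS+I3C, a difference of 2.79 with TNBS+I3C well above the other arrays. F3, tissue factor, which starts coagulation, read 10.46, 11.38, 11.35 and 12.30, again with I3C and TNBS+Vehicle level between the extremes. Epha2, an ephrin receptor kinase, read 8.81, 8.70, 10.36 and 10.58. Here both colitis arrays were high. Prss8, the membrane protease prostasin, differed by 1.69, Gprc5a, an orphan receptor induced by retinoic acid, by 1.66, and Cd55, which shields cells from complement, by 1.57. Spink1, a secreted trypsin inhibitor, differed by 1.68. Below the 25 highest, Pard6b, a cytoplasmic adaptor of the apical polarity complex, differed by 1.27, and Sprr2b, of the same family as Sprr1a, read 14.09 in Vehicle and 15.57 in TNBS+I3C, while Sprr2h was at background in both.

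The list of epithelial repair and stress genes had 15 measured members, all above 0, with a median of 0.63. Of these 4 were at least 2-fold higher (26.7%, against 1.08% of measured coding genes). Beside Sprr1a these were Il1rn, the antagonist of the interleukin-1 receptor, Ereg, the EGF receptor ligand epiregulin, and Plaur, the urokinase receptor. Il1rn read 9.49 in Vehicle, 9.64 in I3C, 12.07 in TNBS+Vehicle and 11.13 in TNBS+I3C, so that TNBS+I3C lay between TNBS+Vehicle and the arrays without colitis. Ereg read 7.40, 7.84, 8.38 and 8.78, and Plaur 7.96, 8.16, 9.78 and 9.27. A further probe set of Ereg was at background in all 4 arrays. Duox2, of the epithelial NADPH oxidase, differed by 0.11, and Nos2, inducible nitric oxide synthase, was at background in both arrays.

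Goblet cell products were mostly above Vehicle. Clca1, a secreted protease of mucus, read 16.20 in Vehicle, 16.67 in I3C, 13.15 in TNBS+Vehicle and 17.58 in TNBS+I3C. TNBS+Vehicle was the low array and TNBS+I3C the high one, 1.38 above Vehicle. Zg16, a mucus lectin that binds Gram-positive bacteria, read 18.29, 19.47, 18.98 and 19.54, a difference of 1.25 with Vehicle as the low array. Retnlb, which encodes the antibacterial protein RELM-beta, read 7.29, 7.73, 8.84 and 8.42. Spink4 read 14.36, 15.57, 15.47 and 15.45, so the 3 other arrays were level with each other and above Vehicle; its difference of 1.09 became 0.83 after quantile normalization. Muc2, the gel-forming mucin itself, read 18.31 in Vehicle, 18.80 in I3C, 18.28 in TNBS+Vehicle and 18.38 in TNBS+I3C. Its difference of 0.07 was close to the coding median. Tff3, a trefoil peptide of goblet cells, differed by 0.79, Fcgbp, a mucin-like protein, by 0.80 and Clca3b by 0.74, and Tff1 was at background in all arrays. Of 14 measured goblet cell products 4 were at least 2-fold higher (28.6%, against 1.08% of measured coding genes). Above 0 lay 12 and below it 1, and the median was 0.68 (0.55 after quantile normalization). Agr2, the disulfide isomerase of mucin folding, differed by 0.18. The 13 factors of goblet and secretory fate had a median of 0.19 and no member past 2-fold. Foxa1 was the largest at 0.81, Hes1, a Notch target, differed by 0.59, and Atoh1 and Spdef, which drive the secretory lineage, by 0.25 and 0.19.

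The mucosal pentraxins, secreted proteins of a family that binds bacteria, read below Vehicle. Mptx1 read 11.49 in Vehicle, 11.17 in I3C, 6.73 in TNBS+Vehicle and 10.11 in TNBS+I3C. Mptx2 read 12.34, 11.97, 7.42 and 11.34. In both, TNBS+Vehicle was far the lowest array, and TNBS+I3C differed from Vehicle by -1.38 and -1. Mptx2 sits on the 2-fold threshold and was at -0.95 after centring each array on its coding median. The genes are close copies of each other. The lectin Lgals4 differed by 0.00. Lypd8, which keeps flagellated bacteria from the epithelium, was at the ceiling in all arrays, and Pigr, the receptor that exports secretory antibodies, read 19.07 in 3 arrays and 18.79 in TNBS+Vehicle, so neither can show a difference if such repeated values mark saturation.

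Some inflammatory genes that were highest in TNBS+Vehicle were also above Vehicle in TNBS+I3C, and others were not. Ccl3, a chemokine for monocytes and neutrophils, read 7.99 in Vehicle, 7.75 in I3C, 14.64 in TNBS+Vehicle and 9.25 in TNBS+I3C. Il1b read 8.30, 7.98, 13.83 and 9.45, and Cxcl2, a neutrophil chemokine, read 8.54, 7.88, 14.38 and 9.49. The order of the arrays was the same in these 3 genes, with I3C lowest, and TNBS+I3C stood 1.26, 1.15 and 0.95 above Vehicle (Cxcl2 reached 1.0 after centring each array on its coding median). Igsf6, an immunoglobulin superfamily gene of myeloid cells, read 7.31, 7.31, 13.46 and 8.78. Lilrb4a, an inhibitory receptor of myeloid cells, read 9.99, 9.72, 16.04 and 11.17. Ccrl2, a receptor that binds chemerin, read 7.61, 7.60, 11.91 and 9.16, and Steap4, a metalloreductase induced in inflammation, was at least 1.45 higher. Igsf6, Lilrb4a and Steap4 were picked with their values in view. Trem1, a receptor of myeloid cells, read 6.30, 6.17, 9.60 and 6.16, a difference of -0.14, and Saa1, an acute phase protein, read 14.11, 14.69, 15.61 and 14.13, a difference of 0.02. In these TNBS+Vehicle was high and TNBS+I3C was level with Vehicle. Saa2 differed by -0.18, Nfkbiz by 0.09 and Lcn2 by 0.00, the last at background in both arrays. Tnf differed by 0.49, Cxcl1 by 0.07 and Cxcl10 by 0.16. Il6, Il10, Il17a, Ifng, Il22 and Csf2 were at or below background in both arrays. Of 12 measured cytokines and chemokines 2 were at least 2-fold higher (16.7%, against 1.08% of measured coding genes), with a median of 0.31.

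Markers of cells other than epithelium bear on these values and were read as whole lists. Of 20 neutrophil genes 10 were measured and 2 were at least 2-fold higher, Ly6g (1.11, and 0.93 after quantile normalization) and Mrgpra2a (1.08). S100a8, a calprotectin subunit, read 4.34 in Vehicle, 3.54 in I3C, 12.74 in TNBS+Vehicle and 4.23 in TNBS+I3C, and S100a9, the other subunit, 5.64, 6.33, 13.88 and 6.13. The granule genes Mmp8, Mmp9, Ngp and Ltf were at background in both arrays. The log2 of the summed signal of the neutrophil list was 11.87 in Vehicle, 12.41 in I3C, 16.17 in TNBS+Vehicle and 12.83 in TNBS+I3C. Ly6g gave most of that sum in the 3 arrays other than TNBS+Vehicle, and it read 11.48 in Vehicle. Of 16 macrophage and monocyte genes 7 were measured and 1 was past 2-fold, Lyz2. Cd14, the lipopolysaccharide co-receptor, differed by 0.70, Ly6c2 by 0.74 and Itgam by 0.52, while Adgre1, C1qa, C1qb, C1qc and Csf1r, which define tissue macrophages, were at background in both arrays. The summed signal of that list was 9.73 in Vehicle and 10.39 in TNBS+I3C. Of 17 T and intraepithelial lymphocyte genes 10 were measured with none past 2-fold and a median of 0.15. Cd3e read 5.63 in Vehicle and 6.45 in TNBS+I3C. Of 11 B and plasma cell genes with a value, Sdc1, which epithelium also expresses, was the only measured one, and of 9 endothelial genes Pecam1 was. Fibroblast and smooth muscle genes had 6 measured members of 13 with a median of -0.08, which took the other sign (0.03) after quantile normalization. The part of such cells in the differences was not tested.

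Feedback regulators of inflammatory signalling and immediate early genes were mostly above Vehicle, as were 64.0% of all measured coding genes. Of 14 measured NF-kappaB feedback and acute phase genes 13 lay above 0, none was past 2-fold, and the median was 0.27. Nfkbia, the inhibitor of NF-kappaB, read 16 in Vehicle and 16.64 in TNBS+I3C, Tnfaip3, the deubiquitinase A20, 14.15 and 14.78, and Acod1, which makes itaconate in activated myeloid cells, 7.28 and 8.08. Rela, the p65 subunit of NF-kappaB, read 11.43 in Vehicle, 11.89 in I3C, 12.42 in TNBS+Vehicle and 12.74 in TNBS+I3C. All 15 immediate early genes lay above 0, with a median of 0.39. Many of them were bright, and coding genes had medians of 0.32 for means of 12 to 14, 0.36 for 14 to 16 and 0.07 above 16. Ier3, an early response gene of cell survival, read 6.75, 7.02, 8.56 and 8.18. Nr4a1, an orphan nuclear receptor, read 14.24, 14.77, 15.53 and 15.43, a difference of 1.19 that became 0.95 after quantile normalization. Klf10, a transcription factor induced by TGF-beta, read 9.60, 9.51, 11.23 and 11.10. In each of the 3, both colitis arrays were high. Mt2, a zinc-binding metallothionein, read 12.13, 11.92, 16.58 and 13.68, with TNBS+Vehicle far above TNBS+I3C and a difference from Vehicle of 1.55. Mt1 read 15.35, 15.80, 17.04 and 16.66, high in both colitis arrays, with a difference of 1.31.

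Interferon response and antigen presentation genes had small positive medians. Of 15 measured interferon response genes 2 were at least 2-fold higher (13.3%, against 1.08% of measured coding genes). Above 0 lay 12 and below it 3, and the median was 0.31. Ifit1bl1 read 7.17 in Vehicle, 7.68 in I3C, 6.95 in TNBS+Vehicle and 8.43 in TNBS+I3C, a difference of 1.26. Ifi27l2b read 11.91, 11.75, 12.13 and 13.07, a difference of 1.16 that became 0.99 after quantile normalization. In both genes TNBS+I3C was the high array. Gbp2, a guanylate-binding protein, read 6.45, 6.45, 5.92 and 7.14. Isg15, Mx1 and Usp18 were at background in both arrays. All 12 measured genes of antigen presentation lay above 0, as did 64.0% of measured coding genes, with a median of 0.30 and none past 2-fold. B2m, the light chain of class I molecules, read 16.39 in Vehicle and 17.20 in TNBS+I3C, and the class II gene H2-Aa 5.70 and 6.25.

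Heat shock genes were the group at the lower end. They encode chaperones that refold proteins, and heat shock factors switch them on through paired GAA units in their promoters. Hspa1a, the inducible HSP70, read 12.25 in Vehicle, 13.18 in I3C, 10.68 in TNBS+Vehicle and 9.86 in TNBS+I3C. Hsph1, a nucleotide exchange factor for HSP70, read 11.15, 12.42, 9.42 and 8.97. Hsp90aa1, the inducible HSP90, read 15.79, 16.32, 14.47 and 13.96. All 3 genes had the same order of arrays, I3C above Vehicle above TNBS+Vehicle above TNBS+I3C, and differed from Vehicle by -2.39, -2.18 and -1.83. A probe set that names both Hspa1b and Hspa1a differed by -2.59, and the probe sets that name Hsp90aa1 with a predicted gene by -1.99 and -1.79. These copies are near-identical, so the probe sets do not give separate readings. Of 11 measured heat shock genes 3 were at least 2-fold lower (27.3%, against 0.0699% of measured coding genes), none was higher, 9 lay below 0 and 2 at 0. The median was -0.34, or -0.21 with every probe set counted on its own, and the mean was -0.78. Hspd1, the mitochondrial HSP60, differed by -0.74, Dnajb1, an HSP40, by -0.52, Hspe1, which pairs with HSP60, by -0.34, and Hspb1 by -0.10. Bag3, a co-chaperone that heat shock factor also induces, read 7.70 in both arrays, and Hspa8, the constitutive HSC70, was at the ceiling in all 4. Zfand2a, a zinc finger gene induced by arsenite, read 10.07 in Vehicle and 11.30 in TNBS+I3C.

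The promoters of the first pair are printed because these genes had the lowest differences and because the site of heat shock factor can be read in them. The sequences are RefSeq's for GRCm38.p6, the 250 bases before the start on the strand of the gene, both on the minus strand, at chr17:34972157-34972406 for Hspa1a and chr5:149636337-149636586 for Hsph1. Capitals mark GAANNTTC and TTCNNGAA, each of which reads the same on both strands.
Hspa1a: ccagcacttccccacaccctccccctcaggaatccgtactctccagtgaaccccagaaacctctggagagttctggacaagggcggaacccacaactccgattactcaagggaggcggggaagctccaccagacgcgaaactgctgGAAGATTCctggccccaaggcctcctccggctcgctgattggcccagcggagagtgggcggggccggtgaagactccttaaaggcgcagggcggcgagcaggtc
Hsph1: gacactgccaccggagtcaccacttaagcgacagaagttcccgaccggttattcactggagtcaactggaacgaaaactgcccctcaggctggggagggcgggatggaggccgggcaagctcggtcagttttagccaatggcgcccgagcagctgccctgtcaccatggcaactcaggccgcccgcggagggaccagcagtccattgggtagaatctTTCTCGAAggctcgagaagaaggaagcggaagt
Hspa1a has 1 match, GAAGATTC, from position -104, and Hsph1 has TTCTCGAA from position -33, with a further 2 overlapping matches after the start at positions 37 and 42. Of the 11 measured heat shock genes 9 have a promoter in the table, and 7 of these, Bag3, Chordc1, Hspa1a, Hspb1, Hspd1, Hspe1 and Hsph1, hold either form within the 300 bases. That is 77.8% of those genes, against 17% of the 27025 genes in the table and 14.3% of measured coding genes. Heat shock genes as a class are driven through this site, so the share follows from the choice of list and says nothing of these arrays. Hsp90aa1 and Hspa8 have no promoter there. The differences from Vehicle of the 7 genes with a match ran from -2.39 for Hspa1a to 0.00 for Bag3. Among higher coding genes 11 of 81 had such a match, 13.6%. Reg3g is 1 of these, with GAAAGTTC from position -233, which is not in capitals in its promoter above.

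Unfolded protein response genes of the endoplasmic reticulum lay on the other side of Vehicle. All 13 measured members were above 0, as were 64.0% of measured coding genes, none past 2-fold, with a median of 0.43. Hspa5, the chaperone BiP, read 12.65 in Vehicle, 12.82 in I3C, 13.49 in TNBS+Vehicle and 13.40 in TNBS+I3C. Herpud1, of protein degradation at the endoplasmic reticulum, differed by 0.62 and Ddit3, the transcription factor CHOP, by 0.59. Both colitis arrays were above both others for Hspa5.

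No gene on the AhR list was 2-fold away from Vehicle, and 5 of the 11 with a value were at background in both arrays. Ahr read 8.37 in Vehicle, 8.22 in I3C, 8.21 in TNBS+Vehicle and 8.23 in TNBS+I3C. The classical target genes Cyp1a1, Cyp1a2, Cyp1b1 and the repressor gene Ahrr were at background in both arrays, and Tiparp, a further target, differed by -0.15. Of 11 listed genes with a value 6 were measured, 3 on each side of 0. Their median was 0.03 and took the other sign after quantile normalization (-0.01). The list counts the receptor gene Ahr and its partner Arnt, which differed by -0.14 and -0.06, so these figures are not of targets alone. Lpcat2, a further listed gene, differed by 0.12. Nqo1, a quinone reductase that NRF2 also controls, read 8.45, 7.79, 7.42 and 9.15, with TNBS+I3C highest and TNBS+Vehicle lowest, a difference of 0.70, and Nfe2l2, which encodes NRF2, differed by 0.52. The core GCGTG, searched on both strands, occurs in the promoters of 30 of the 81 higher coding genes with a promoter in the table, 37.0%, against 54.6% of measured coding genes and 35.2% of all genes there.

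Conjugation enzymes and NRF2 targets were mostly above Vehicle. Gstp1, a glutathione transferase, read 13.57 in Vehicle, 13.84 in I3C, 14.57 in TNBS+Vehicle and 15.14 in TNBS+I3C, a difference of 1.57. Of 16 measured conjugation enzymes and NRF2 targets 14 lay above 0, 1 was past 2-fold (6.25%) and the median was 0.41. Gstm1 differed by 0.69, Gsta4 by 0.66 and the sulfotransferase Gal3st2b by 0.67, while Gclc, of glutathione synthesis, differed by -0.29. Papss2, which makes the sulfate donor used for mucins, read 17.06 in Vehicle and 18.20 in TNBS+I3C, and Cat, catalase, 12.01 and 13.08. The 14 colonic cytochrome P450 genes had a median of 0.15. Cyp3a13, a drug-metabolising enzyme, read 13.81, 13.36, 13.60 and 12.84, lowest in TNBS+I3C, at -0.97 and at -1.17 after quantile normalization. Akr1c18, a hydroxysteroid dehydrogenase that inactivates progesterone, read 8.57, 8.38, 9.08 and 10.15.

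The list medians of energy metabolism, 0.23 to 0.35, lay within the 0.16 to 0.36 that coding genes with a mean signal of 8 to 16 had. Ndufa4, a subunit of cytochrome oxidase, read 9.66 in Vehicle, 9.68 in I3C, 11.13 in TNBS+Vehicle and 11.05 in TNBS+I3C, with both colitis arrays level and high. The 16 respiratory chain genes had a median of 0.26 (0.13 after quantile normalization) with 1 at least 2-fold higher (6.25%, against 1.08% of measured coding genes). Outside the list, and picked with their values in view, Ndufb4b differed by 1.28, Ndufb4c by 1.21, Cox6a1 by 1.01 and Sdhd by 0.99. No respiratory chain gene was among the 7 lower coding genes, which were only 0.0699% of those measured. Coq5, of ubiquinone synthesis, read 11.09, 11.45, 12.28 and 12.60. The 16 glycolysis and hypoxia genes had a median of 0.35 (0.24 after quantile normalization), with 1 at least 2-fold higher (6.25%, against the same 1.08%). Ndrg1, a hypoxia gene, differed by 1.12 (0.97 after quantile normalization), Car9, a carbonic anhydrase induced by hypoxia, by 0.84 and Pgk1 by 0.73, but Vegfa by -0.43. Of 13 measured genes of fatty acid oxidation and ketogenesis 11 lay above 0, with a median of 0.25. Cpt2 and Cpt1a, of mitochondrial fatty acid import, differed by 0.80 and 0.67, and Pdk4, which curbs pyruvate oxidation, read 14.53, 13.79, 15.32 and 13.83, so that TNBS+I3C was level with I3C and below Vehicle. The 14 measured cholesterol and fatty acid synthesis genes had a median of 0.23 and none past 2-fold, while Fads2, the delta-6 desaturase, differed by -0.80 in its brighter probe set and -0.11 in the other.

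Transport genes of the absorptive cells had 1 member past 2-fold in the 3 lists. The 14 sodium absorption and pH genes had a median of 0.14 and no member past 2-fold. Atp12a, the colonic proton pump, read 13.15 in Vehicle, 14.85 in I3C, 12.52 in TNBS+Vehicle and 13.51 in TNBS+I3C, high in I3C alone. The 14 water, anion and guanylin genes had a median of 0.27 (0.15 after quantile normalization). Guca2b, uroguanylin, read 10.85, 11.09, 13.38 and 11.75, and Aqp8, a water channel of surface cells, 12.30, 12.56, 11.28 and 13.13. Slc3a1, of dibasic amino acid and cystine uptake, differed by 1.01 (0.92 after quantile normalization), and Slc37a2, a sugar phosphate exchanger, read 10.67, 11.22, 7.34 and 10.16. The 15 solute carriers had a median of 0.12, which took the other sign after quantile normalization (-0.07). S100g, the calcium carrier calbindin-D9k, read 5.53, 5.35, 3.98 and 6.77, above background in Vehicle and TNBS+I3C only, with a difference of 1.24. Slc51a, of the basolateral bile acid transporter, differed by 1.30.

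No listed proliferation or stem cell gene was 2-fold away from Vehicle. Mki67, a marker of cycling cells, read 9.87 in Vehicle, 9.66 in I3C, 11.24 in TNBS+Vehicle and 9.81 in TNBS+I3C. TNBS+Vehicle was the high array and I3C and TNBS+I3C lay within 0.21 of Vehicle. The 21 measured proliferation genes ranged from -0.30 to 0.27, with 8 above 0 and 13 below and a median of -0.03 that took the other sign under quantile normalization (0.01) and centring (0.02). The 9 measured stem cell and Wnt genes had a median of 0.01, with Lgr5, the crypt base marker, at -0.03, Cd44 at 0.74 and Axin2, a Wnt target, at -0.17. Enteroendocrine genes had a median of -0.01 over 10 members, which took the other sign under both scalings (0.03 and 0.04). Chgb, a granin of endocrine granules, read 8.37, 7.94, 7.37 and 7.66, while Pyy, peptide YY, differed by 0.63. Of 12 tuft cell genes 3 were measured, and Dclk1, Trpm5 and Pou2f3, which define tuft cells, were at background in both arrays. The 14 measured clock genes had a median of 0.14, with 1 past 2-fold, Bhlhe40 (1.05, and 0.89 after quantile normalization), and Per1 at 0.74 and Dbp at 0.71.

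The remaining lists had no member past 2-fold except in the iron and calcium list. The 12 measured retinoid and lipid handling genes had a median of -0.01, which took the other sign under both scalings (0.04 in each) and over genes above background in both arrays (0.10), although Rdh10 and Aldh1a1, enzymes of retinoic acid synthesis, differed by 0.92 and 0.82. Of 13 measured iron and calcium genes 1 was past 2-fold, S100g, and the median was 0.00, with Ftl1, ferritin light chain, at 0.60 and the iron exporter Slc40a1 at 0.49. The 7 measured Hox genes had a median of 0.07, and Hoxd13, of the distal gut, read 7.47 in Vehicle, 8.99 in I3C, 9.05 in TNBS+Vehicle and 8.04 in TNBS+I3C. The 5 measured matrix proteases and inhibitors had a median of -0.10, the 8 histone genes 0.38 and the 6 ribosomal protein genes 0.33 (0.23 after quantile normalization).

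Over the 42 lists together, 460 of 602 genes were measured, 32 were at least 2-fold higher and 5 lower. Over all measured coding genes the shares were 1.08% higher and 0.0699% lower. The lists were chosen with earlier results known, so a larger share in them is not a result. List medians lay above 0 for 32 lists, below 0 for 8 and at 0 for 2. The lists account for 32 of the 108 higher coding genes. Among the 76 in no list were Ly6m, of the Ly6 surface protein family (9.45 in Vehicle, 8.36 in I3C, 10.84 in TNBS+Vehicle and 11.49 in TNBS+I3C), the tubulin Tuba4a (9.63, 10.32, 11.36 and 11.47) and Alas1, the first enzyme of heme synthesis (10.64, 10.18, 11.60 and 12). In Tuba4a both colitis arrays were level and high, and in Ly6m I3C was the low array. Lower coding genes outside the lists were Usp17lc, a deubiquitinase of a family of similar copies (-1.24), and 1 olfactory receptor (-1.03).

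**Figure D4:**
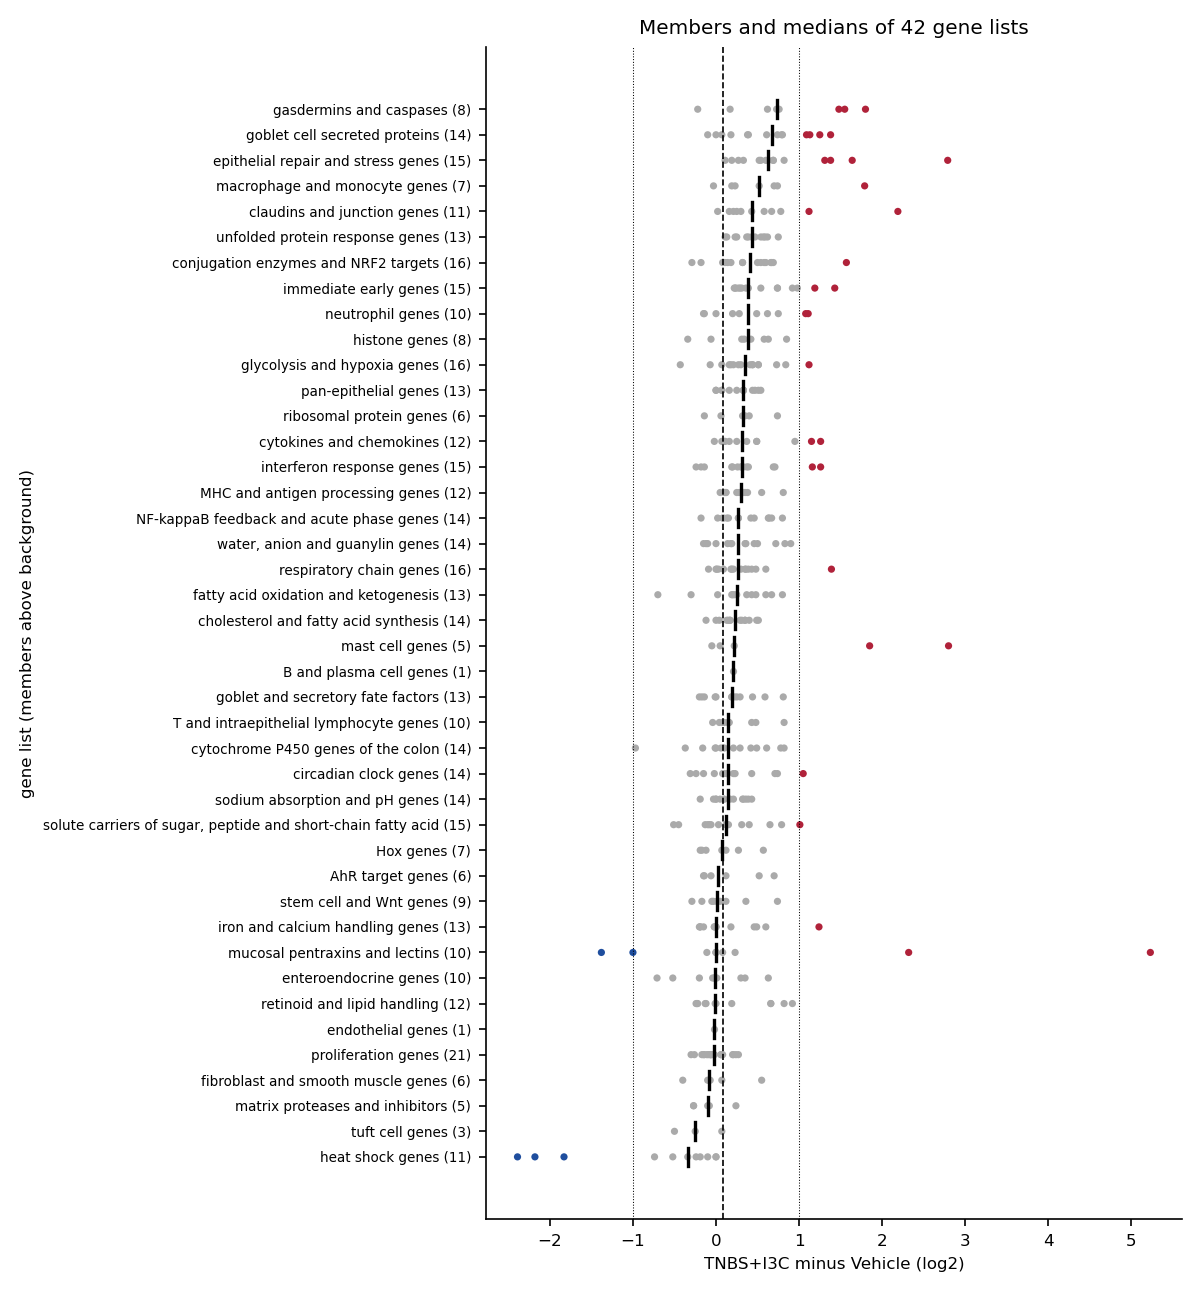
Differences TNBS+I3C minus Vehicle (x axis, log2) of the measured members of 42 gene lists (y axis, ordered by median, with the number measured), 1 point a gene, red and blue where at least 2-fold higher or lower; black bars are list medians, dotted lines mark 2-fold and the dashed line the median of 0.08 over all measured coding genes. Gasdermins and caspases have the highest median (0.74) and heat shock genes the lowest (-0.34).

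Among 5094 measured noncoding genes and pseudogenes, 95 were at least 2-fold higher (1.86%) and 61 lower (1.2%), with a median of 0.00 and an SD of 0.414. Pseudogenes supplied 77 of the higher and 23 of the lower, out of 2464. None of 688 small nuclear RNA genes was higher and 18 were lower. Mir1938 read 11.91 in Vehicle and 13.76 in TNBS+I3C, and Snora62, a small nucleolar RNA, 13.08 and 11.10. The pseudogene Hspe1-ps6 differed by -1.35 and Gstp-ps by 1.27, and the probes of such copies may not be separable from those of Hspe1 and Gstp1. Hba-ps4, an alpha-globin pseudogene, differed by 1.78.

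The microRNA genes of the 29 family were on both sides. Mir29a read 6.38 in Vehicle, 6.41 in I3C, 7.26 in TNBS+Vehicle and 8.05 in TNBS+I3C, and Mir29b-1 7.35, 6.58, 6.32 and 6.01. For Mir29a TNBS+I3C was the highest array and for Mir29b-1 the lowest, with differences of 1.67 and -1.34. The hairpins lie 275 bases apart on the minus strand of chromosome 6 (GRCm38.p6), and which transcript form the probe sets read is not stated in the labels or the methods. The mature 3p sequences are shown from RefSeq because they share a seed, bases 2 to 8, in capitals.
mmu-miR-29a-3p: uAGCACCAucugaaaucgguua
mmu-miR-29b-3p: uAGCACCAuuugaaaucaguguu
The seed AGCACCA is the same in both, so the 2 genes with opposite differences encode mature forms of 1 seed group.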

How the data were processed

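RNA of EPCAM-enriched CECs, pooled by group, was hybridised to 4 Clariom D mouse arrays, 1 each for Vehicle, I3C, TNBS+Vehicle and TNBS+I3C. The authors processed them with the Transcriptome Analysis Console, named in the submitters' processing notes, and deposited log2 values for 65956 probe sets. Background correction, normalization and genome build were not given in the sources used here. Of the probe sets, 30649 pair with 1 gene symbol, 2165 with several (not named) and 33142 are unnamed here. Names followed the RefSeq table (GRCm38.p6) by gene number for 22603 and by symbol for 7714, and 332 kept the annotation's symbol. Of 30187 genes, 354 had several probe sets. The background level, 5.43, is the highest of the arrays' 95th percentiles (5.23 to 5.44, cut to 2 decimals) over 1530 receptor probe sets. Raising values to it makes 556 coding differences bounds, written "at least" where large.

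Genes named are the 25 highest and 25 lowest coding genes, without receptors, antigen receptor segments and predicted genes (3 of the higher, 1 of the lower), up to 4 per list, the study's genes and 10 noncoding genes. Others were picked with their values in view. The members and the 42 lists were chosen with earlier results of these data known. A summed signal is the log2 of the sum of linear signals. Counts use 2-fold, and alternatives changed normalization, background, probe set and threshold. Promoters and miRNAs are RefSeq's. The number of arrays limits the precision. Tools were Python 3.11.15, numpy 2.4.6, pandas 2.3.3 and matplotlib 3.10.9.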

Additional observations from a re-analysis of the deposited data

How the results depend on the processing

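No paired analysis was possible because each group is 1 pooled array and the labels carry no replicate numbers, and for the same reason no array could be left out. Of the counts at 2-fold, 108 coding genes higher and 7 lower, and 203 higher and 68 lower over all classes, those of higher genes stayed within 1.5 times under every setting other than a change of threshold. The lower counts depended on dim values. With values as deposited, none raised to background, they were 32 coding genes and 142 of any class, and with the background set at the median of the receptor probe sets (4.4) they were 14 and 104. At 1.5-fold, 598 coding genes were higher and 40 lower, and 1088 and 332 of any class. At 3-fold these were 17, 3, 24 and 8. Quantile normalization gave 82 coding genes higher and 7 lower, and 142 higher and 77 lower of any class, a larger share of lower genes than the 203 and 68 above. Centring on the coding median gave 124 and 5. The list members past 2-fold numbered 37, and between 30 and 38 under the alternatives at 2-fold. Of 42 list medians, 6 took the other sign under quantile normalization and 3 under centring. With the lower background level the medians of neutrophil (0.39) and of macrophage and monocyte genes (0.52) were both 0.19, that of B and plasma cell genes (0.21) was 0.03, that of cytokines and chemokines (0.31) was 0.17 and that of tuft cell genes (-0.25) was -0.1, with more dim members counted as measured. Single genes were read under these settings for 207 named genes only, not for others such as Papss2, Cat, Mt1, Rela and Alas1. Of the 207, 8 no longer reached 2-fold under quantile normalization (Spink4, Ly6g, Slc3a1, Ifi27l2b, Bhlhe40, Nr4a1, Cldn3 and Ndrg1) and Cyp3a13 reached it. Under centring Mptx2 no longer reached it, and Cxcl2 (1.0) and Ier2 (1.03) did. Zfp472 reached -1.10 with values as deposited and with the lower background level. The cause of these changes was not tested. Signals near background and at the ceiling limit what can be read.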
